A study of Rattus norvegicus with 4 samples.

Results

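The exocytosis and synaptic vesicle genes of INS-1 832/13 β-cells were taken as a list of 46 gene names, drawn up with earlier results of these data known, that encode SNAREs, SM proteins, synaptotagmins, Rab3 and Rab27 GTPases with their effectors, active zone proteins, synaptic vesicle proteins, and neurexins and neuroligins. Of the 46 genes, 43 are in the count table of 15172 genes, and all 43 passed the filter on low counts that left 13953 genes for testing. Snap23, Exph5 and Sv2b were not analysed here. INS-1 832/13 is a clonal rat insulinoma line that secretes insulin in response to glucose. The cells were transfected for 36 h with a non-targeting siRNA (siScramble, control, 2 samples) or with a pool of siRNAs against Tbk1 (siTbk1, 2 samples), and polyadenylated RNA was sequenced from stranded libraries. TBK1 is a non-canonical IκB kinase, and the comparison asks which mRNAs change when it is silenced.

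Insulin leaves the β-cell when a dense core granule fuses with the plasma membrane, and the machinery is shared with the neuron. A vesicle SNARE (VAMP) pairs with the target membrane SNAREs syntaxin and SNAP25, SM proteins and UNC13 proteins prepare the complex, and synaptotagmins trigger fusion when they bind calcium. Rab3 and Rab27 with their effectors bring granules to the membrane, NSF and its adaptor α-SNAP take used SNARE complexes apart, and dynamin cuts off membrane that is taken back into the cell. Many of these proteins come in related forms, some mostly neuronal and neuroendocrine and others found in most cells.

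The total estimated count was between 38428926 and 47759013 per library, so that 3 counts correspond to between 0.0628 and 0.0781 CPM (counts per 1000000 of the library, here after TMM scaling between libraries). Tbk1 stood at 53.7 and 52.5 CPM in siScramble-treated and at 11.8 and 13.3 CPM in siTbk1-treated cells (replicates 2 and 3 in each group). Among the β-cell markers, 13 of 14 were measured, with a summed level between 15369 and 16025 CPM in control and between 11147 and 12431 CPM in siTbk1-treated cells. That fall lay in Ins1, as the other 12 summed to between 4933 and 4986 CPM in control and between 4902 and 4911 CPM in siTbk1-treated cells. Past the edgeR adjusted p, 6 of the 13 were lower, among them Ins1, Ins2 and Slc2a2, 5 were higher, among them Iapp and Pcsk1, and 2 did not pass. Of 5 markers of other islet cells only Gcg was measured, at a mean of 1351 CPM in control and 846 CPM in siTbk1-treated cells. The 4 of 5 neuron markers that were measured summed to between 42.4 and 45.8 CPM in control and, without overlap, to between 36.5 and 37.6 CPM in siTbk1-treated cells. Gad1 and Eno2, which held most of the sum (means of 25.2 and 11.8 CPM in control), were lower (edgeR adjusted p = 0.0055 and 0.027). For Eno2 the log2 ratio was −0.64 between the samples numbered 2 and −0.093 between those numbered 3. Rbfox3 and Slc17a7 did not pass the adjusted p, at log2 fold changes of −0.23 and 0.21. The sum was thus lower alongside the synaptic members described below as lower, while Slc17a7 went the other way, from 4.75 and 4.87 to 5.61 and 5.51 CPM. Of 6 exocrine and duct markers only Krt7 was measured, at 95.8 to 101.8 CPM in control and 78.2 to 81.3 CPM in siTbk1-treated cells (edgeR adjusted p = 0.00095). Of 6 non-epithelial markers only Cd68 was measured, at 0.250 to 0.328 CPM in control and 0.185 to 0.340 CPM in siTbk1-treated cells. The part of these differences in the results below was not tested. In RNA from whole cultures, a lower level per cell and a smaller share of cells that hold the mRNA cannot be told apart.

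The mRNAs of the fusion machinery moved in both directions. Vamp3, a vesicle SNARE found in most cell types, rose by more than any other member, and Syngr1, Dnm1, Syt11 and Nrxn2, which encode synaptogyrin 1, dynamin 1, synaptotagmin 11 and neurexin 2, fell. A gene was called where edgeR's quasi-likelihood test gave an adjusted p below 0.05 and the groups differed by 1.5-fold or more. By these limits 1 of the 43 members was called higher (2.33%) and 4 were called lower (9.30%). Among all tested genes the same limits called 4.81% higher and 6.18% lower, so that the members' shares differ from the background by few genes. DESeq2 and limma-voom called the same 5 members. Without the fold change limit, 11 members were higher (25.6%) and 18 were lower (41.9%), against 24.4% and 24.8% of all tested genes. The median log2 fold change was −0.096 over the members and 0.0071 over all tested genes, and its median size regardless of sign was 0.31 and 0.25.

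**Figure D1:**
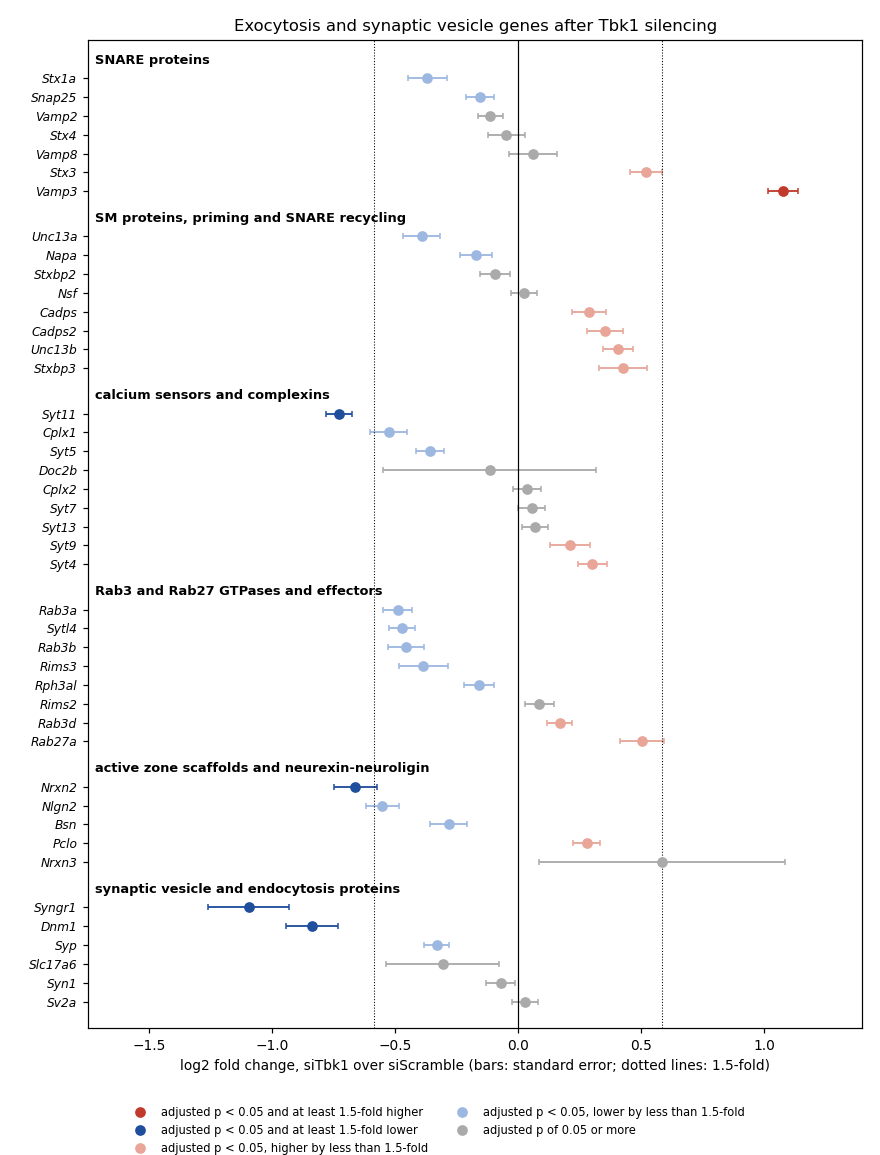
The log2 fold change of the 43 tested members (x axis, siTbk1 over siScramble) is plotted by role, with the standard error as bars and dotted lines at a fold change of 1.5. Vamp3 lies at 1.08, and Syngr1, Dnm1, Syt11 and Nrxn2 lie between −1.10 and −0.66, while the other members lie within the dotted lines or, for Nrxn3 with its wide error, on one of them.

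**Figure D2:**
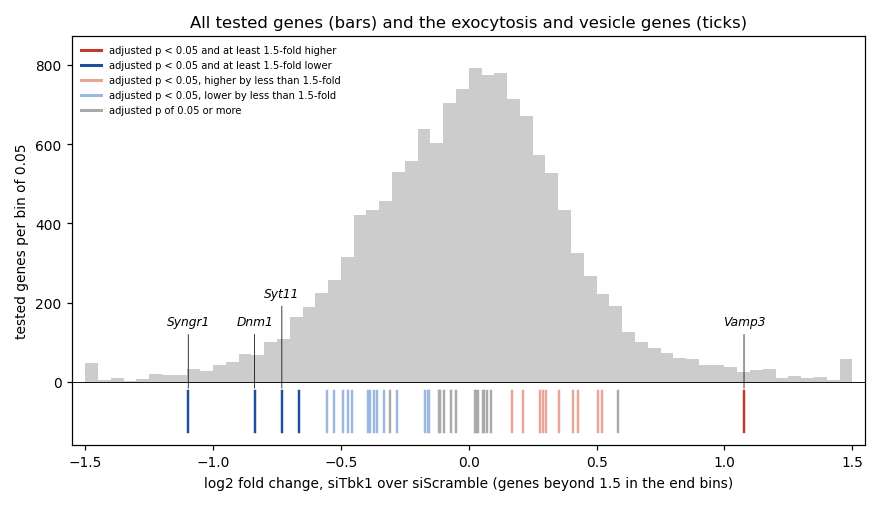
Grey bars count the 13953 tested genes by log2 fold change (x axis), and coloured ticks under them mark the 43 members, with members of an adjusted p of 0.05 or more in grey. The members lie between −1.10 (Syngr1) and 1.08 (Vamp3), while all tested genes run from −8.01 to 3.23. Genes beyond 1.5 in either direction are counted in the end bins.

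For 14 members (32.6%) the treated samples were both higher than either control, and for 22 (51.2%) both were lower. Such separation is common in these data, at 38.7% and 37.9% of all tested genes. Same-numbered samples gave a ratio of the same sign for 39 of the 43 members (90.7%) and for 82.9% of all tested genes. Together the members held between 0.381% and 0.421% of all counts in a library.

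The counts by role below are of few genes and are to be read against the 24.4% of all tested genes that were higher and the 24.8% that were lower past the adjusted p. Among the SNAREs, 2 of 7 members were higher (28.6%) and 2 were lower (28.6%) past the adjusted p, near those shares, and the fold change limit was passed by Vamp3 alone. Vamp3, also called cellubrevin, is a vesicle SNARE of recycling endosomes and constitutive traffic, and is listed on chromosome 5 from 168126157 to 168136667 (rn6). Its level was 48.5 and 46.3 CPM in siScramble-treated and 96.5 and 103.7 CPM in siTbk1-treated cells, so that the groups stand far apart. This is a log2 fold change of 1.08 (standard error 0.062, edgeR adjusted p = 3.3e-07), and it was the 1 member that also passed a test against the 1.5-fold limit itself (edgeR's glmTreat, adjusted p = 0.00011). Vamp2, the vesicle SNARE of regulated exocytosis in neurons and β-cells, stood at 152.5 and 152.0 CPM in control and at 141.1 and 140.4 CPM in siTbk1-treated cells. Its libraries do not overlap, but the difference of −0.11 on the log2 scale did not pass (edgeR adjusted p = 0.084, 95% interval −0.22 to −0.00265). Vamp8, which serves late endosomes and granules of several secretory cells, was at a log2 fold change of 0.059 (95% interval −0.15 to 0.27).

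The syntaxins moved in opposite directions. Stx1a, the neuronal and β-cell syntaxin of the plasma membrane, had a level of 50.4 and 54.3 CPM in control and of 43.6 and 37.2 CPM in siTbk1-treated cells. Both treated libraries were lower, by 0.37 on average on the log2 scale (standard error 0.078, edgeR adjusted p = 0.0020). Stx3, a syntaxin of apical and granule membranes, rose from 31.7 and 29.5 CPM to 43.6 and 44.3 CPM, a log2 fold change of 0.52 (standard error 0.066, edgeR adjusted p = 6.7e-05). Stx4, the syntaxin of most plasma membranes, overlapped between the groups at −0.048 (95% interval −0.21 to 0.11). Snap25, the partner of syntaxin at the target membrane, was slightly lower, from 136.1 and 128.8 CPM to 115.5 and 122.3 CPM. This was a log2 fold change of −0.16 (edgeR adjusted p = 0.037). Its counts are not all whole numbers (6538.05 in siScramble replicate 2), which was taken as a sign of split reads. Snap25 did not pass without siScramble replicate 2 (−0.12) or without siTbk1 replicate 2 (−0.13, edgeR adjusted p = 0.21 and 0.18).

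The sequences before the starts of Stx1a and Stx3 are shown because these members of a family moved apart. Each is the 250 bases upstream of the gene's start in RefSeq's GRCr8 annotation, on chr12:27306472-27306721 for Stx1a and chr1:218110467-218110716 for Stx3, both on the minus strand. Capitals mark the letters searched on both strands, which were the core of the cAMP response element (TGACG), the GC box (GGGCGG), the CCAAT box (CCAAT), the TATA box (TATAAA), an E-box (CACGTG) and the left and right cores of the RE1 element (CAGCACC and GGACAGC).
Stx1a: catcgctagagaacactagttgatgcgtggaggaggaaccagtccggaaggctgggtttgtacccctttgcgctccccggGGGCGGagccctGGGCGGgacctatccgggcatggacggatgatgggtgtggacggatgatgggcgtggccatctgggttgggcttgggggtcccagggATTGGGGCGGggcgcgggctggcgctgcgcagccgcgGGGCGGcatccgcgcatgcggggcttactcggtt
Stx3: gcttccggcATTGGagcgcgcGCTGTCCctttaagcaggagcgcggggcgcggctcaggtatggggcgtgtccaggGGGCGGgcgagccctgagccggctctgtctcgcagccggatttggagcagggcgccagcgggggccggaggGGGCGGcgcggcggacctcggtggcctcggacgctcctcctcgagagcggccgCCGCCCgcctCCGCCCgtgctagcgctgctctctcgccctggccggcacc
Both hold 4 GC boxes and 1 CCAAT box, which in Stx1a overlaps a GC box, and Stx3 also holds the right RE1 core 229 bases before its start. Neither window holds the letters of the cAMP response element core.

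SM proteins, priming factors and the proteins that recycle SNAREs included 4 members that were higher and 2 that were lower past the adjusted p, out of 8. None passed the fold change limit with edgeR, DESeq2 or limma-voom, and the same 4 and 2 members were past an unadjusted p of 0.05 in edgeR's test. Stxbp3, the SM protein that binds syntaxin 4, had the largest change, from 14.1 and 12.8 CPM to 16.7 and 19.6 CPM. The change was 0.43 on the log2 scale (standard error 0.097, edgeR adjusted p = 0.0032). Stxbp2, a related SM protein of granule-secreting cells, was at −0.096 (95% interval −0.23 to 0.037). The UNC13 proteins open syntaxin for assembly. Unc13a, the main neuronal form, fell from 34.1 and 38.8 CPM to 28.1 and 27.4 CPM, and Unc13b rose from 36.4 and 34.4 CPM to 47.3 and 46.7 CPM. The log2 fold changes were −0.39 and 0.41 (standard errors 0.075 and 0.063, edgeR adjusted p = 0.0011 and 0.00025). The counts of Unc13b include split reads. Cadps and Cadps2, which encode the CAPS proteins that prime dense core granules, both rose, by 0.29 and 0.35 on the log2 scale (edgeR adjusted p = 0.0039 and 0.0016).

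Nsf, the ATPase that takes SNARE complexes apart, was measured at 106.7 and 106.4 CPM in control and at 109.8 and 107.0 CPM in siTbk1-treated cells. The difference of 0.024 on the log2 scale had a 95% interval from −0.091 to 0.14. Napa, which encodes its adaptor α-SNAP, was at −0.17 (edgeR adjusted p = 0.046) and did not pass without siScramble replicate 3 (−0.10) or without siTbk1 replicate 3 (−0.11, edgeR adjusted p = 0.32 and 0.29).

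Of the 9 calcium sensors and complexins, 2 were higher (22.2%) and 3 were lower (33.3%) past the adjusted p. Syt11, a synaptotagmin that lacks calcium binding and acts in endocytosis and vesicle traffic, changed most and is listed on chromosome 2 from 188112286 to 188138178. It was measured at 137.7 and 136.4 CPM in control and at 82.9 and 82.2 CPM in siTbk1-treated cells, with replicates nearly equal within each group. The log2 fold change of Syt11 was −0.73 (standard error 0.053, edgeR adjusted p = 1.7e-06). Syt5, a calcium sensor of dense core granules, fell from 265.6 and 281.4 CPM to 221.4 and 204.6 CPM (log2 fold change −0.36, edgeR adjusted p = 0.00030). Syt4, which like Syt11 does not bind calcium in the usual way, rose from 132.3 and 119.0 CPM to 157.3 and 152.5 CPM (log2 fold change 0.30, edgeR adjusted p = 0.0014). Syt7 and Syt9, calcium sensors of insulin granule fusion, had log2 fold changes of 0.054 (95% interval −0.065 to 0.17) and 0.21 (edgeR adjusted p = 0.046), and the latter did not pass with any 1 of the samples left out. The span listed for Syt9 lies inside that of LOC691427 on the same strand. Syt13 was at 0.070 (95% interval −0.044 to 0.18).

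The 250 bases upstream of Syt11 are shown because it is the called member with the smallest spread between replicates. They lie on chr2:176529776-176530025 of GRCr8, on the minus strand, with capitals as for the syntaxins.
Syt11: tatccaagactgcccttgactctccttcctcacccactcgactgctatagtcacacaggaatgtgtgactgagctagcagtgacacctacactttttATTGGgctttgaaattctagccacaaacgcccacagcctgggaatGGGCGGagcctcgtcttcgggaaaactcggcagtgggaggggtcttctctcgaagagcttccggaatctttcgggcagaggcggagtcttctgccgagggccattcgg
The window holds a CCAAT box 153 bases and a GC box 108 bases before the start, each counted from the first base of the match.

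Complexins clamp the assembled SNARE complex until calcium arrives. Cplx1, the complexin of many synapses, was lower in both treated libraries, with 43.2 and 48.7 CPM in control and 32.8 and 30.8 CPM in siTbk1-treated cells. The change of −0.53 on the log2 scale (standard error 0.074, edgeR adjusted p = 0.00013) stayed under the fold change limit. Cplx2 stood at 487.4 and 539.2 CPM in control and at 529.9 and 521.8 CPM in siTbk1-treated cells, where the groups overlap and the 95% interval of the log2 fold change of 0.035 ran from −0.090 to 0.16. Doc2b, a calcium sensor that binds UNC13 proteins and SNAREs, was near the detection floor, at 0.312 and 0.555 CPM in control and at 0.298 and 0.503 CPM in siTbk1-treated cells, and the 95% interval of its log2 fold change ran from −1.06 to 0.83.

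Of 8 Rab3 and Rab27 GTPases and effectors, which dock granules, 5 were lower and 2 were higher past the adjusted p, against 24.8% and 24.4% of all tested genes, and none passed the fold change limit with edgeR, DESeq2 or limma-voom (5 and 2 at an unadjusted p under 0.05 in edgeR's test). Rab3a, the Rab of synaptic vesicles and insulin granules, fell from 73.4 and 76.5 CPM to 53.1 and 53.6 CPM, a log2 fold change of −0.49 (standard error 0.058, edgeR adjusted p = 4.5e-05). Its gene overlaps Mpv17l2, on the opposite strand, whose log2 fold change was −0.21. Rab3b fell from 28.3 and 30.4 CPM to 21.8 and 21.0 CPM (log2 fold change −0.46, edgeR adjusted p = 0.00030). Rab3d was slightly higher, with 417.2 and 411.4 CPM in control and 472.9 and 458.1 CPM in siTbk1-treated cells (log2 fold change 0.17, standard error 0.050, edgeR adjusted p = 0.015). It did not pass with library size alone, without siScramble replicate 3 or without siTbk1 replicate 2 (edgeR adjusted p = 0.057, 0.084 and 0.13). Rab27a, which docks insulin granules at the plasma membrane, had the largest change of the role, from 14.5 and 12.6 CPM to 19.5 and 19.1 CPM. The log2 fold change of Rab27a was 0.50 (standard error 0.088, edgeR adjusted p = 0.00057), and without siScramble replicate 2 it was 0.61 and passed the fold change limit.

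Among the effectors, Sytl4 encodes granuphilin, which binds Rab27a and syntaxin 1A on insulin granules. Its level was 226.6 and 216.4 CPM in control and 158.4 and 160.8 CPM in siTbk1-treated cells, a log2 fold change of −0.47 (standard error 0.052, edgeR adjusted p = 2.9e-05), and its counts include split reads. Rims3, of the RIM family, was lower by 0.39 on the log2 scale (edgeR adjusted p = 0.0073), but not past the adjusted p without siTbk1 replicate 3 (−0.28, edgeR adjusted p = 0.069). Rph3al, which encodes the Rab effector Noc2, was at −0.16 (edgeR adjusted p = 0.047) and did not pass without siScramble replicate 3, siTbk1 replicate 2 or siTbk1 replicate 3, where it was between −0.19 and −0.091. Rims2, which encodes the RIM2 scaffold that links Rab3 to calcium channels, was at 0.085 (95% interval −0.045 to 0.22).

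Active zone scaffolds and the neurexin-neuroligin genes comprised 5 members, of which 3 were lower and 1 was higher past the adjusted p. Nrxn2 encodes a cell adhesion receptor of the presynaptic membrane that β-cells also make, and is listed on chromosome 1 from 221792221 to 221908050. Its level was 60.9 and 75.6 CPM in control and 42.6 and 43.5 CPM in siTbk1-treated cells, with the larger spread between the controls. The log2 fold change of Nrxn2 was −0.66 (standard error 0.087, edgeR adjusted p = 8.5e-05), and without siScramble replicate 3 it was −0.50 and no longer passed the fold change limit. Nlgn2, which encodes neuroligin 2, a partner of neurexins, fell from 61.9 and 68.0 CPM to 45.7 and 42.7 CPM. This log2 fold change of −0.55 (standard error 0.068, edgeR adjusted p = 5.4e-05) was just under the limit and passed it without siScramble replicate 2 or without siTbk1 replicate 2, as did that of Cplx1. Both Nrxn2 and Nlgn2 have split reads.

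Bsn and Pclo encode the giant scaffolds bassoon and piccolo. Bsn was lower, with 39.0 and 44.7 CPM in control and 35.2 and 33.5 CPM in siTbk1-treated cells (log2 fold change −0.28, edgeR adjusted p = 0.0082), but without siScramble replicate 3 it was at −0.18 and did not pass (edgeR adjusted p = 0.085). Pclo was higher, with 119.2 and 124.7 CPM in control and 144.8 and 151.1 CPM in siTbk1-treated cells (log2 fold change 0.28, standard error 0.054, edgeR adjusted p = 0.0012). The counts of Pclo include split reads. Its listed span overlaps AABR07059380.1 on the same strand, with a mean count of 478 against 5794 for Pclo. Nrxn3 was near the detection floor, between 0.167 and 0.503 CPM over the libraries, and the interval of its log2 fold change ran from −0.50 to 1.67.

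Synaptic vesicle and endocytosis proteins comprised 6 members, of which 3 were lower past the adjusted p and the other 3 did not pass. Dnm1, the neuronal dynamin, is listed on chromosome 3 from 11338083 to 11382044. It was measured at 11.3 and 12.3 CPM in control and at 6.95 and 6.23 CPM in siTbk1-treated cells, a log2 fold change of −0.84 (standard error 0.11, edgeR adjusted p = 6.8e-05). Syngr1, a membrane protein of synaptic vesicles listed on chromosome 7 from 121311024 to 121334438, had 5.93 and 7.25 CPM in control and 3.51 and 2.57 CPM in siTbk1-treated cells. The groups do not overlap, and the log2 fold change was −1.10 (standard error 0.16, edgeR adjusted p = 0.00020). The first 543 bases listed for Syngr1 overlap the opposite strand of the ribosomal protein gene Rpl3, which had 213 times as many counts and a log2 fold change of −0.15, and whether the counting used strand is not given in the sources used here. The part of Rpl3 reads in the Syngr1 count was not tested. Syp, which encodes the abundant vesicle protein synaptophysin, stood at 193.4 and 199.1 CPM in control and at 155.3 and 156.7 CPM in siTbk1-treated cells (log2 fold change −0.33, standard error 0.051, edgeR adjusted p = 0.00024).

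The window before Dnm1 is shown because, of the 2 called members whose promoters were searched (Syt11 and Dnm1), it holds the core of the cAMP response element, 177 bases before its start, and none of the other letters searched. It lies on chr3:36046290-36046539 of GRCr8, on the minus strand.
Dnm1: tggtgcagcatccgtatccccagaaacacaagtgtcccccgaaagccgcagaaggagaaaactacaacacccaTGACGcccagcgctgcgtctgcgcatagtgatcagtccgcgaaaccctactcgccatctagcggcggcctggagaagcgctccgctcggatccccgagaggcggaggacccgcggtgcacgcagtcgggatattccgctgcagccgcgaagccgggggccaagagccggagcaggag
No promoter of Vamp3, Nrxn2 or Syngr1 is printed.

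Syn1, which encodes synapsin 1, was at a log2 fold change of −0.070 (95% interval −0.20 to 0.058). Its gene overlaps Araf, Timp1 and LOC102555453 on the opposite strand, with mean counts of 1622, 12 and 9963 against 2481 for Syn1. The part of their reads in the Syn1 count was not tested. Sv2a, a glycoprotein of vesicle and granule membranes, was at 0.028 (95% interval −0.089 to 0.14). Slc17a6, a vesicular glutamate transporter, was measured at 1.44 and 1.41 CPM in control and at 1.25 and 1.03 CPM in siTbk1-treated cells, and its difference of −0.31 on the log2 scale did not pass (edgeR adjusted p = 0.29, 95% interval −0.81 to 0.20).

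**Figure D3:**
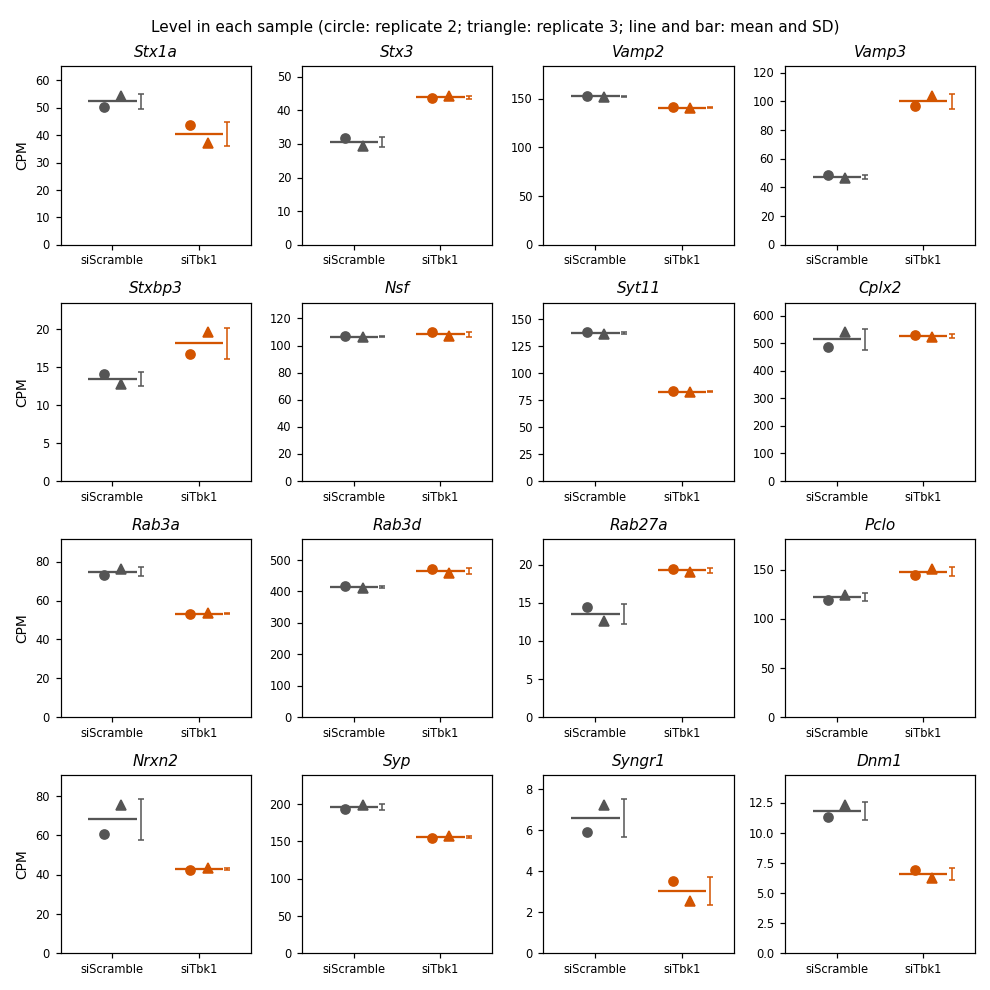
Each panel plots the CPM of 1 member (y axis from 0) in the 2 siScramble and the 2 siTbk1 samples, with a circle for replicate 2, a triangle for replicate 3, a line at the mean and a bar for the SD. The groups stand apart for Vamp3 (means of 47.4 and 100.1 CPM) and Syt11 (137.0 and 82.6 CPM), and meet for Cplx2 (513.3 and 525.8 CPM).

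In most of the pairs picked for this comparison, the related members changed relative to each other. The ratio of 2 mRNAs within a library does not depend on the scaling between libraries, and since levels are not divided by transcript length, its change and not its size was read. The 10 pairs were chosen after the values of the members were seen, and each is written so that its ratio rose. The ratios are therefore given as a description, and how many pairs changed, and their shared direction, follow from that choice. The ratio of Vamp3 to Vamp2 was 0.318 and 0.304 in siScramble-treated and 0.684 and 0.738 in siTbk1-treated cells, a change of 1.19 on the log2 scale. For Stx3 over Stx1a it was 0.629 and 0.543 in control and 1.00 and 1.19 in siTbk1-treated cells, a change of 0.90. Unc13b over Unc13a went from 1.07 and 0.887 to 1.68 and 1.71, a change of 0.80. In these pairs the treated libraries lie above both controls.

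Rab3d over Rab3a (log2 change 0.66), Syt9 over Syt5 (0.57), Cplx2 over Cplx1 (0.57), Pclo over Bsn (0.56) and Stxbp3 over Stxbp2 (0.53) were also higher in both treated libraries than in both controls. The ratios of Cadps2 to Cadps (0.063) and of Rab3b to Rab3a (0.033) overlapped between the groups, as the genes of each pair changed in the same direction.

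**Figure D4:**
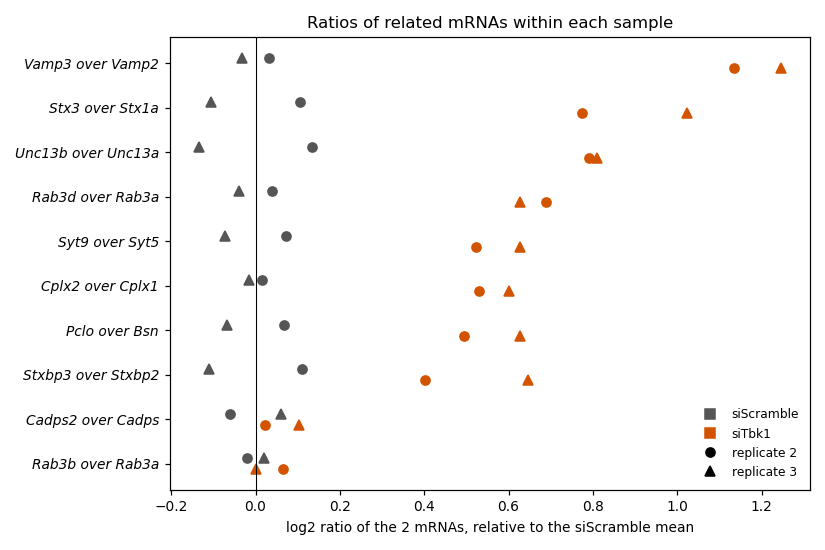
For each of 10 pairs of related mRNAs (y axis), the log2 ratio within each sample is plotted relative to the siScramble mean (x axis), with colour for the treatment and shape for the replicate number. The siTbk1 samples lie to the right of the controls for 8 pairs, farthest for Vamp3 over Vamp2 at 1.19 on average, and among them for Cadps2 over Cadps and Rab3b over Rab3a.

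Members span more of the genome than most genes, with a median of 40.5 kb from the listed start to the listed stop against 20.1 kb for all tested genes. In these libraries log2 fold changes rise with span, with a median of 0.079 for all tested genes above the median span and of −0.078 for those below it. The members did not divide in this way, with medians of −0.093 for the 30 longer and −0.096 for the 13 shorter members. An offset that removed each library's trend along span left the same 5 members called and kept 9 of the 11 higher and 17 of the 18 lower members past the adjusted p. Cadps and Syt9 no longer passed as higher, at 0.16 and 0.096 on the log2 scale (edgeR adjusted p = 0.075 and 0.36). Napa no longer passed as lower, at −0.15 (edgeR adjusted p = 0.081), and Syn1 passed, at −0.15 (edgeR adjusted p = 0.047).

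**Figure D5:**
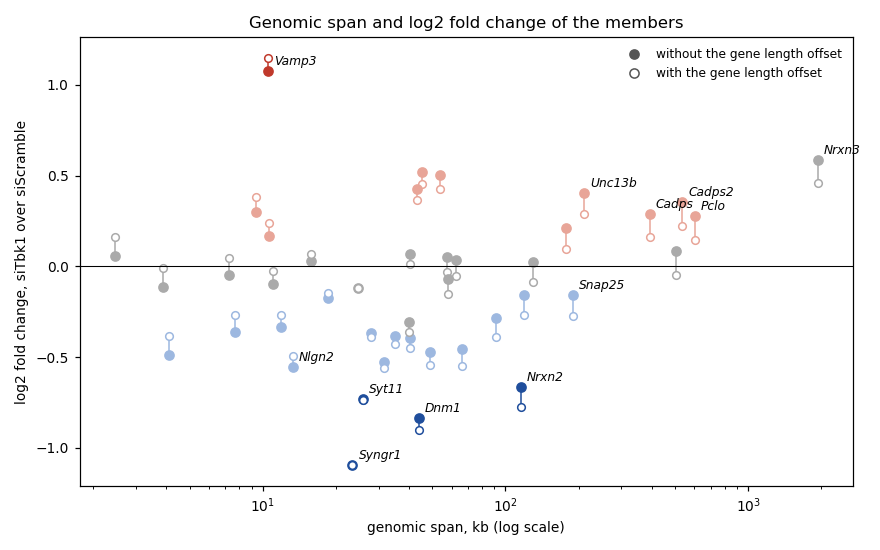
The log2 fold change of each member (y axis) is plotted against its genomic span in kb (x axis, log scale), with filled circles without and open circles with the gene length offset. The offset moves long genes down and short genes up, for example Cadps from 0.29 to 0.16, Snap25 from −0.16 to −0.27 and Vamp3 from 1.08 to 1.15.

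Promoters in the RefSeq table matched 32 of the 43 members. Their 250 upstream bases had a median GC content of 64.6%, against 52.4% over 24206 promoters. The core of the cAMP response element was found in 13 of the 32 (40.6%, against 19.3% of all promoters), in 7 of 14 lower, 2 of 9 higher and 4 of 9 other members. A GC box was in 21 (65.6%, against 33.6%), a CCAAT box in 8 (25.0%, against 34.4%) and a TATA box in 1 (3.12%, against 13.3%), which was Stxbp3. An E-box was in 4 (12.5%, against 5.86%), the left RE1 core in 5 (15.6%, against 5.51%) and the right RE1 core in 3 (9.38%, against 5.37%). These are counts of letters in short windows that differ in base composition from most promoters. All 32 members also passed the filter on low counts, while the 24206 promoters were not limited to genes tested here. The part of these differences in the shares was not tested.

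A list of 118 further genes, called the other exocytosis genes here, held 105 genes in the table and 100 that were tested. It took in the other SNAREs, SM and priming proteins, synaptotagmins, Rab effectors, active zone, vesicle and exocyst genes. Some, such as Stx5, Gosr1, Bet1, Stx7 and Vps45, serve the ER, Golgi or endosomes, so the counts are not of exocytosis genes alone. Of the 100 tested genes, 2 were called higher and 8 lower, against 4.81% and 6.18% of all tested genes. The median log2 fold change was 0.022. Past the adjusted p without the fold change limit, 22 of 100 were higher and 27 lower, near the 24.4% and 24.8% of all tested genes. The 24 tested SNAREs of the list held 6 of the higher and 1 of the lower genes. Baiap3, which encodes an UNC13-like priming protein of dense core granules, fell from 70.8 and 74.4 CPM to 44.3 and 41.0 CPM (log2 fold change −0.76, edgeR adjusted p = 4.6e-06). Sncb, which encodes β-synuclein, fell from 75.0 and 85.5 CPM to 47.7 and 43.0 CPM (log2 fold change −0.82, edgeR adjusted p = 8.7e-06). Ppfia3, an active zone liprin, was lower by 0.84 on the log2 scale (edgeR adjusted p = 2.2e-05).

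Sv2c, a relative of Sv2a, was at 4.87 and 5.96 CPM in control and at 3.10 and 2.99 CPM in siTbk1-treated cells (log2 fold change −0.82, edgeR adjusted p = 0.00069). Slc18a1, a vesicular monoamine transporter, was called higher, with 1.52 and 1.74 CPM in control and 3.38 and 3.68 CPM in siTbk1-treated cells (log2 fold change 1.12, edgeR adjusted p = 0.00025). Its counts were between 69 and 159 per library. The other 5 called genes also had low counts. Dnm3 (−0.74), Rims4 (−0.76), Vamp5 (−1.21) and Syngr3 (−1.26) were lower and Sytl2 (1.51) was higher on the log2 scale, with at most 34 counts in a library for Vamp5, Syngr3 and Sytl2 and at most 166 for Dnm3 and Rims4. The 9 exocyst subunits, which tether vesicles before fusion, held 3 higher and 3 lower genes past edgeR's adjusted p (33.3% each, against 24.4% and 24.8% of all tested genes), with log2 fold changes between −0.47 (Exoc7) and 0.42 (Exoc5) among them.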

How the data were processed

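In INS-1 832/13 cells, polyadenylated RNA was measured in 2 samples each of the siScramble and siTbk1 groups. The authors deposited estimated counts per gene, not scaled between samples, and the submitters' processing notes name STAR 2.6.1d, Partek and the build rn6 without their roles. Nothing says that the samples of a group are separate cultures, so p-values measure the spread between these samples. Replicates differed by more than counting noise.

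Estimated counts were rounded. Genes were filtered with filterByExpr (minimum count 10) and libraries scaled by TMM in edgeR 4.0.16 (R 4.3.3), and treatment was tested across all 13953 genes with the quasi-likelihood test and Benjamini-Hochberg adjustment. Standard errors are the log2 fold change over the root of its F statistic. Calls needed an adjusted p below 0.05 and a 1.5-fold difference, the limits the paper states. DESeq2 1.42.0, limma 3.58.1, other scalings and filters, a replicate block, glmTreat, a gene length offset (loess, span 0.5) and leaving out each sample were alternatives. Reads count as split where a value lies over 0.01 from a whole number. This held for 11 of the 43 tested members: Snap25, Unc13b, Nsf, Syt7, Cplx2, Rims2, Sytl4, Pclo, Nrxn2, Nrxn3 and Nlgn2. It does not show how many reads were shared or with which genes. On simulated data (13848 genes), edgeR's test recovered 100% of 2-fold and 98% of 1.7-fold changes with 0 false calls past both limits. Every simulated gene had the same dispersion, and changes were put only in genes above a limit on mean count. The simulation therefore covers neither dispersion that differs between genes nor changes in genes with low counts.

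The members and gene lists were chosen with earlier results of these data known. Every member is named. Values in every sample are given for called members, for the largest change and the highest CPM in each role, and, chosen after their values were seen, for further members. Of the other exocytosis genes, those called are named. Sequences are RefSeq's (GRCr8), not the build of the counts. Depth was between 38428926 and 47759013 counts per library, and 3 counts, taken as the floor, cover counting error only.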

Additional observations from a re-analysis of the deposited data

How the results depend on the processing

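With 2 samples per group, the precision is limited by their number, and for Doc2b, Nrxn3 and Slc17a6 also by depth. The fold change limit mattered most. Without it, 3405 genes were higher and 3459 lower, among them 11 and 18 members and 22 and 27 of the other exocytosis genes. With glmTreat, which tests the 1.5-fold limit itself, 163 genes were higher and 101 lower, among them 1 and 0 members (1 and 3 at an unadjusted p under 0.05) and 0 and 1 of the other exocytosis genes (2 and 6 at an unadjusted p under 0.05). The adjusted glmTreat p of the lower members was between 0.051 (Syngr1) and 0.95 (Nrxn2).

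The replicate numbers 2 and 3 occur in both groups, but deviations of same-numbered samples correlated across tested genes at 0.0041 by Pearson and at −0.20 by Spearman, and with 2 numbers and no label that ties them they were taken to share only a number. With the replicate block, 1 member was higher and 4 were lower past both limits, the same 5 as without it, and 9 and 15 passed the adjusted p alone, without Rab3d, Syt9, Napa, Rph3al and Snap25. With the gene length offset and the replicate block, 7 members were higher past the adjusted p, without Cadps, Cadps2, Pclo and Syt9. With the DESeq2 Wald test, 1 of the other exocytosis genes was higher and 5 were lower. Library size alone added Nlgn2 to the lower members.

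The median log2 fold change of the members was −0.10 with DESeq2 size factors, −0.092 with the upper quartile, −0.14 with library size alone (where all tested genes had −0.040), −0.10 with DESeq2, −0.10 without a filter, −0.11 with at least 10 counts in every sample, and −0.088 with the gene length offset without or with the block.

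Leaving out each sample in turn, with the lone sample of a group taken to vary like the others, gave between 552 and 756 higher and between 574 (without siScramble replicate 3) and 1159 lower genes, 1 to 2 higher and 3 to 6 lower members, 9 to 10 and 15 to 17 members past the adjusted p, 2 to 3 higher and 6 to 9 lower other exocytosis genes, and a members' median between −0.11 and −0.064 (without siTbk1 replicate 2). Nrxn2 was lost without siScramble replicate 3, and Rab27a was gained without siScramble replicate 2. The cause of these shifts was not tested.

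Members with small changes turned sign, and none of them passed in either setting. With library size alone, Nsf was at −0.023, Cplx2 at −0.013 and Sv2a at −0.020. With the gene length offset, Stx4 was at 0.045, Nsf at −0.088, Syt7 at −0.029, Cplx2 at −0.054 and Rims2 at −0.045, and with the block added they were at 0.047, −0.088, −0.030, −0.052 and −0.044. With a sample left out, Stx4 ranged from −0.11 to 0.020, Vamp8 from −0.066 to 0.19, Cplx2 from −0.036 to 0.11, Sv2a from −0.011 to 0.064, Doc2b from −0.51 to 0.32, Nsf from −0.0066 to 0.043 and Syt7 from −0.016 to 0.11.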
